A study of Mus musculus with 18 samples.

Results

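Transcript levels in oocytes without Lsm14b were compared between the fully grown germinal vesicle stage (GV) and 14 h after the ovulatory injection of human chorionic gonadotropin (hCG), which the labels denote as MII. All 3 GV libraries and all 3 MII libraries of the knockout (KO, Lsm14b-/-) entered, each made from 15 pooled oocytes. Genes were kept where at least 3 of these 6 libraries held 1 FPKM or more, a rule that does not use the difference between the stages, and 8848 of 27874 genes passed. FPKM relates the reads of a gene to the length of its exons and to the reads assigned in the whole library.

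The whole series holds 18 libraries in 6 groups of 3 replicates, from wild-type (WT) and KO mice at GV, at metaphase I (MI) and at the MII time. The study asks what LSM14B contributes to keeping and clearing maternal mRNA in the oocyte. The groups used for tests here were KO GV, KO MII, WT GV and WT MII, and MI levels are given as description. The labels do not state whether KO oocytes collected at 14 h had reached metaphase II, nor the strain, the age of the mice, how the allele was made or whether replicates came from separate animals. P-values therefore measure the spread between these libraries, which may be partly technical.

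A mammalian oocyte stops transcription before it resumes meiosis, so that maturation and the first hours of embryonic life run on mRNA made during growth. Part of that mRNA is held with short poly(A) tails in ribonucleoprotein particles and is given longer tails and translated on schedule, and part is deadenylated and degraded as meiosis proceeds. LSM14B belongs to the RAP55 family of RNA-binding proteins, which reside in these particles together with DDX6 and related translational repressors. Cytoplasmic polyadenylation is directed by short U-rich elements in the 3′ UTR that CPEB1 binds, and BTG4 recruits the CCR4-NOT deadenylase for the clearance of maternal mRNA. Because cDNA was primed with oligo(dT), a level in these libraries may depend on the length of the poly(A) tail as well as on the number of mRNA molecules, and the bulk values do not tell fewer cells from less RNA per cell.

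Lsm14b itself (chr2:180024987-180035465, mm10 coordinates) was close to 0 in the libraries labelled KO. It stood at 0.114, 0.234 and 0 FPKM in KO GV and at 0.106, 0.0214 and 0.212 FPKM in KO MII, from at most 10 reads per library, against 2.04 to 11.2 FPKM in the WT libraries of the series. It was therefore below the filter and was not tested. The 12 oocyte markers were at 1 FPKM or more in all 6 KO libraries, with a summed level of 16520 to 22900 FPKM at GV and 11030 to 12030 at MII. The 9 defining markers of cumulus and granulosa cells summed to 4.47 to 5.47 FPKM at GV and 2.57 to 3.54 at MII, with 4 to 6 of them at 0. The 7 markers of theca, stroma and endothelium found in the table summed to 2.76 to 4.81 FPKM. The 6 defining markers of blood cells summed to at most 0.587 FPKM except in KO MII replicate 3, with 4.71.

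The KO libraries held 14437146 to 16352235 reads assigned to genes, recovered from the steps in the FPKM values. KO GV replicates stood further apart than KO MII replicates. Pearson correlations across genes were 0.863 to 0.956 within KO GV and 0.969 to 0.982 within KO MII. Deviations from the group mean had an SD of 0.541 and 0.495 log2 units in KO GV replicates 2 and 3 and of at most 0.270 in the others. Summed FPKM per library came to 373841 to 391647 at GV and to 339403 to 346001 at MII. Genes at 1 FPKM or more numbered 9180, 9715 and 8090 at GV and 8015, 7352 and 8144 at MII. These ranges overlapped, and an exact two-sided permutation test gave p = 0.2, where 0.1 is the smallest that 3 against 3 libraries allow. At 0.1 FPKM or more the numbers were 15282, 15863 and 14129 at GV and 13631, 12863 and 13655 at MII, which did not overlap (exact p = 0.1).

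From GV to MII, more genes fell than rose in KO oocytes as deposited, and falls reached larger sizes. Called lower were 54 of 71 genes for cytosolic ribosomal proteins, 46 of 72 nuclear genes of oxidative phosphorylation, 22 of 42 proteasome genes and 18 of 42 translation factor genes, as was the beta-tubulin gene Tubb4b. The rises were smaller and included mt-Nd4, an mRNA of the mitochondrial genome, the deadenylation adaptor Btg4, the decapping factor Dcp1a and the centriole kinase Plk4. Because FPKM is relative to the reads of each library, a rise here is a rise in share. Whether the number of mRNA molecules per oocyte rose was not tested. In limma fits of log2(FPKM + 1), 2337 genes passed an adjusted p of 0.05, or 26.4% of those tested. Of these, 545 (6.16%) were higher and 1792 (20.3%) lower at MII. Among called genes, 351 rose and 1621 fell by 1 or more on the log2 scale, 4 rose and 651 fell by 2 or more, and 71 fell by 4 or more. The median change over all genes tested was -0.03, with quartiles of -0.77 and 0.44. In 1606 genes (18.2%) all 3 MII libraries lay above all 3 GV libraries and in 2357 (26.6%) below them.

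**Figure D1:**
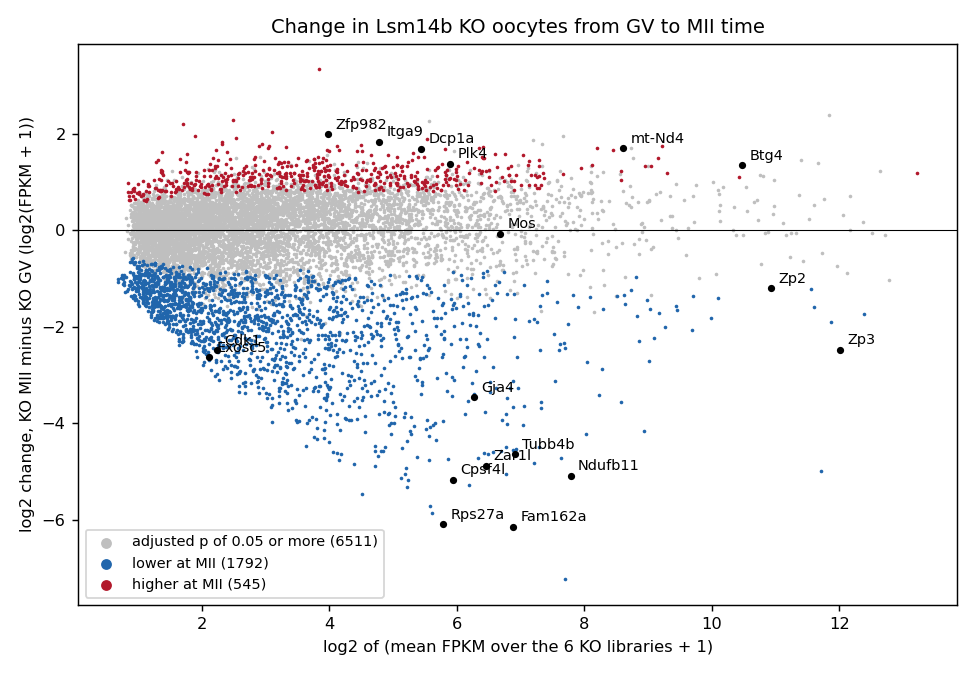
Each point is 1 of 8848 genes, with its mean level over the 6 KO libraries on a log2 scale (horizontal) and its log2 change from KO GV to KO MII (vertical), coloured by the limma call at an adjusted p of 0.05. The 1792 falls reach far larger sizes than the 545 rises.

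The balance of falls and rises depended on the scaling between libraries. As deposited, 76.7% of the called genes were lower. That share was 69.0% with median-of-ratios scaling (842 higher and 1878 lower), 66.8% after scaling to TPM (810 and 1630) and 47.6% with quantile normalization (1782 and 1619). Of the 1792 falls, 1736, 1630 and 1588 were called lower under these 3 scalings too. The median over all genes moved from -0.03 to 0.11 with TPM and 0.26 with quantile normalization. The number of rises also moved when 1 library was left out. With KO MII replicate 1, 2 or 3 left out, 78, 130 and 178 genes were higher and 1293, 1192 and 1404 lower. Without KO GV replicate 1 the counts were 249 and 1364, without replicate 2 they were 577 and 1822, and without replicate 3 they were 744 and 2181. A fit with 1 library fewer also has less power, and the part of this in the counts was not tested. Of 103 called genes that were named by a rule, 71 kept the call without any 1 library. Without KO GV replicates 1, 2 and 3 the call was lost by 25, 3 and 1 of them, and without KO MII replicates 1, 2 and 3 by 29, 26 and 23. With all 18 libraries in the fit, sharing 1 estimate of the spread, 1224 were higher and 2275 lower. Of the 6511 genes that were not called, 2213 had a 95% confidence interval for the change that lay within -1 to 1, so for most of the remainder a 2-fold change could not be told from none.

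Sequence features at the ends of the mRNAs differed between the genes that rose and those that fell. For 7552 of 7614 protein-coding genes tested, the last 150 bases of the longest annotated 3′ UTR were read from GRCm38 on the sense strand. A 3′ UTR shorter than 150 bases was read whole and so offered fewer places for a motif. The cytoplasmic polyadenylation element, searched as TTTTAT or TTTTAAT, was present in 39.8% of 447 higher genes (95% Wilson interval 35.4 to 44.4%) and in 10.7% of 1436 lower genes (9.23 to 12.4%), against 25.9% of all 7552. With 0, 1 and at least 2 copies, 4.81%, 8.18% and 12.5% of genes rose and 22.9%, 8.70% and 4.67% fell. The WT changes of the same genes followed the same order, with medians of 0.00, 0.54 and 0.71 against -0.11, 0.21 and 0.33 in KO. These shares are descriptions of annotated sequence, and a match is not a shown binding site.

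Length and base composition moved with the motif. The median 3′ UTR was 1281 bases long with 40.0% GC in higher genes and 494.5 bases with 46.9% GC in lower genes. Where the 3′ UTR had at most 37.9% GC, 10.7% of genes with the motif and 7.48% of those without it rose, and 6.40% and 11.8% fell. Where it had at least 48.4% GC, 5.41% and 1.70% rose, and 10.5% and 35.9% fell. Among 3′ UTRs of 1 to 468 bases, 14.4% of genes with the motif and 43.1% of those without it fell. Other orders of the same letters showed the pattern too. The share of higher over that of lower genes was 3.72 for TTTTAT and lay between 2.17 and 3.47 for the other 5 orders of 5 T and 1 A. ATTTA, the core of AU-rich elements, stood in 40.5% of higher and 19.7% of lower genes, and the Pumilio motif TGTANATA in 7.61% and 4.60%. The polyadenylation signal AATAAA stood in 75.4% and 55.9%. The part of base composition and of 3′ UTR length in these shares, including windows cut short by a short 3′ UTR, was not tested further.

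**Figure D2:**
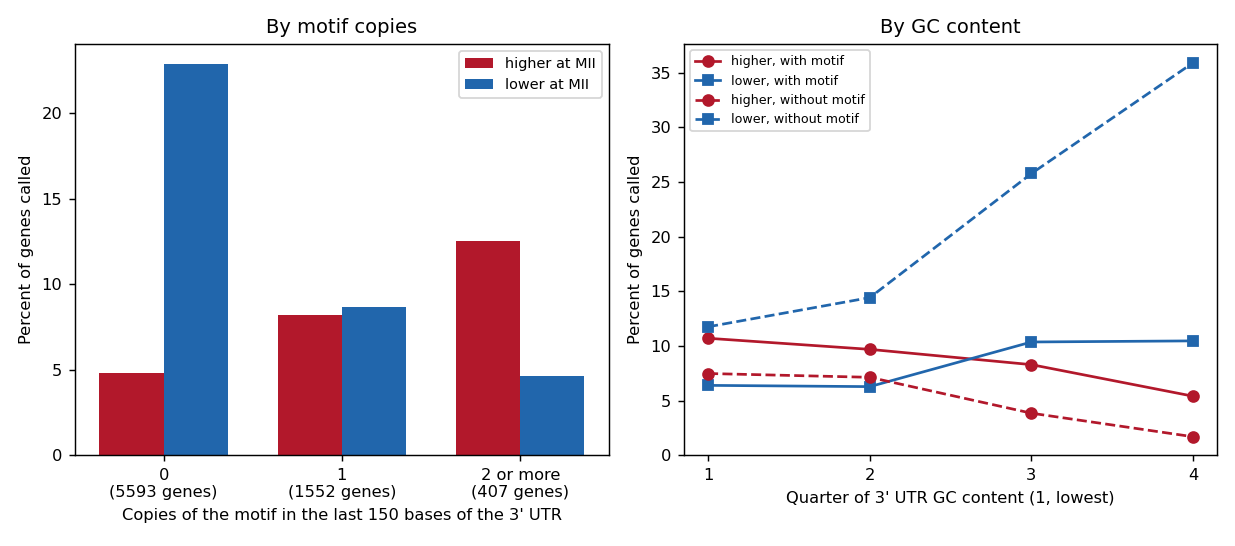
Left, the percent of genes called higher (red) or lower (blue) in KO MII against KO GV, by the copies of TTTTAT or TTTTAAT in the last 150 bases of the 3′ UTR. Right, the same percent by 4 bins of 3′ UTR GC content, of equal size, for genes with the motif (solid) and without it (dashed), where fewer genes with the motif fell in each bin.

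The following stretches of 30 bases show these elements in genes described further on, with motif and polyadenylation signal in capitals, written as DNA of the sense strand from 5′ to 3′. The first group rose and held the motif within 30 bases of the signal:
Dcp1a: atgtttgcaaatatatttTTTTAATAAAat
Plk4: tttctgcaaatacaTTTTATaaAATAAAca
Crabp2: agaatatttattggttaaTTTTATTAAAat
Abcg1: aaataaaactgctAATAAAataTTTTATat

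The second group fell. Each held a signal but no copy of the motif in the last 150 bases, or in a shorter 3′ UTR read whole:
Rps27a: ttgtgtatgcgttAATAAAaagaaggaact
Rpl36: tgaaccctcccccAATAAAagatggttcct
Ndufb11: acctggttcctcagaacaccttATTAAAgg
Timm17a: tgtgatatggaagtggaaactgAATAAAcc
Tubb4b: catcacttgtacagataccaccATTAAAgc
Gja4: gttccactgtttatgatcctcaAATAAAca

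In Dcp1a and Crabp2 the motif and the signal share letters, and in Abcg1 the motif follows the marked signal. The rising stretches lie at chr14:30527003-30527032 (plus strand), chr3:40816834-40816863 (plus strand), chr3:87953331-87953360 (plus strand) and chr17:31117950-31117979 (plus strand). The falling ones lie at chr11:29545850-29545879 (minus strand), chr17:56614214-56614243 (plus strand), chrX:20615337-20615366 (minus strand), chr1:135295225-135295254 (minus strand), chr2:25222175-25222204 (minus strand) and chr4:127311435-127311464 (minus strand), all on mm10. They were chosen after the values were seen and are not typical of every gene. Of the called genes named by the rule given under processing that fell into either kind, 5 of 19 that rose and 1 of 53 that fell had the motif within 30 bases of a signal. Genes with the motif only farther from a signal were left out of these counts. The same share over all genes tested was not worked out.

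Genes of the cytosolic ribosome had the lowest median of the 25 gene lists examined, with 0 of 71 tested members higher and 54 lower. Their median change was -2.21, against -0.03 for all genes, the share lower was far above the 20.3% of all genes, and 70 of 71 estimates lay below 0. Rps27a, which encodes ubiquitin fused to a small-subunit protein, stood at 86.7, 178 and 59.1 FPKM at GV and at 0.341, 0.0627 and 1.05 FPKM at MII, the latter from 11, 2 and 34 reads (log2 change -6.10, SE 0.44, adjusted p = 7.93e-05). The lowest GV library lay above the highest MII library, which the rule for naming required. Rps6, whose protein is phosphorylated downstream of mTOR signalling, went from 164, 216 and 134 to 6.09, 4.33 and 7.33 FPKM (-4.63, SE 0.30, adjusted p = 7e-05). Rps4x, Rpl7a, Rpl36 and Rps13 also belonged to the 15 largest falls and changed by -5.88, -5.33, -5.29 and -4.75.

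KO GV replicate 2 held the highest level of these transcripts. The median over the 71 genes was 15.9, 45.8 and 12.6 FPKM in KO GV replicates 1 to 3 and 1.85, 1.25 and 2.73 FPKM in KO MII. Without that library the median change was -1.75, with 54 genes lower and 1 higher. Over the scalings and voom on recovered reads, 54 to 59 were lower. Ribosomal protein genes have many near-identical pseudogenes, among which reads may have been divided, so values of single members are uncertain.

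Translation initiation and elongation factors fell in part. Of 42 tested, 18 were lower and 3 higher, with a median change of -0.63 and a lower quartile of -2.63. Eif1ax, a factor of start codon scanning, went from 163, 144 and 185 FPKM to 7.48, 4.72 and 5.16 (-4.62, SE 0.28, adjusted p = 6.5e-05). Eif3g and Eif3l, subunits of the eIF3 complex, changed by -4.04 and -4.37, and Eif6, a ribosome anti-association factor, by -3.79.

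Of 72 nuclear genes for the respiratory chain and ATP synthase (oxidative phosphorylation), 46 fell and 1 rose, with a median of -1.92. Ndufb11, a subunit of complex I, stood at 366, 633 and 287 FPKM at GV and 11.3, 8.51 and 13.5 at MII (-5.09, SE 0.35, adjusted p = 7.1e-05). Atp5g1, which encodes the membrane ring of ATP synthase, went from 26.2, 41.5 and 32.4 to 0.286, 0.151 and 0.311 FPKM (-4.76). Ndufa8 changed by -4.07 and Atp5o, 47.9% of whose exon bases overlap other genes, by -4.58. Mitochondrial ribosomal proteins followed, with 40 of 64 lower, 0 higher and a median of -1.54. Mrpl55 went from 75.8, 129.8 and 84.1 FPKM to 4.17, 2.53 and 4.65 (-4.34, adjusted p = 8.63e-05), and Mrpl46, Mrps18c and Mrpl15 changed by -3.47, -3.66 and -2.30, of which Mrps18c shares 23.2% of its exon bases with other genes. Timm17a, a channel subunit of the import machinery of the inner membrane, fell from 65.1, 58.3 and 84.4 to 1.43, 0.783 and 1.14 FPKM (-5.05, adjusted p = 6.5e-05).

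Of 12 mRNAs of the mitochondrial genome tested, 3 were higher, 0 lower and 11 had estimates above 0, with a median of 1.37. In the limma fit without a filter on low levels 0 were higher, and 1 was higher without KO MII replicate 1 or 3. mt-Nd4, a core subunit of complex I, stood at 263, 105 and 201 FPKM at GV and 471, 589.5 and 711 at MII (1.71, SE 0.38, adjusted p = 0.0107). mt-Nd2 went from 367, 243 and 238 to 711, 501 and 1372 FPKM (1.50) and mt-Nd5 from 91.3, 32.1 and 83.7 to 162, 137 and 183 (1.33). The median level of the 12 was 119, 68.6 and 102 FPKM in KO GV replicates 1 to 3 and 199, 159 and 267 FPKM in KO MII, so replicate 2 was the lowest at GV. Without it the median change was 0.72 with 5 genes higher, and over all fits without 1 library 1 to 7 were higher. The call for mt-Nd4 held without any 1 library, that for mt-Nd2 was lost without KO MII replicate 1 or 3, and that for mt-Nd5 held in 2 of 6 such fits. mt-Atp6 had 87.9, 17.8 and 119.9 FPKM at GV and 213, 181 and 256 at MII and did not pass (1.88, adjusted p = 0.0538).

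Proteasome subunits were lower in 22 of 42 cases and higher in 0, with a median of -1.07. Psma6, of the catalytic core, went from 33.0, 50.03 and 37.3 FPKM to 3.87, 2.05 and 3.87 (-3.28, SE 0.31, adjusted p = 0.000194). Psmc3, Psmc4 and Psmc5, ATPases of the regulatory particle, changed by -3.27, -3.02 and -2.64. All 4 calls held without any 1 library.

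**Figure D3:**
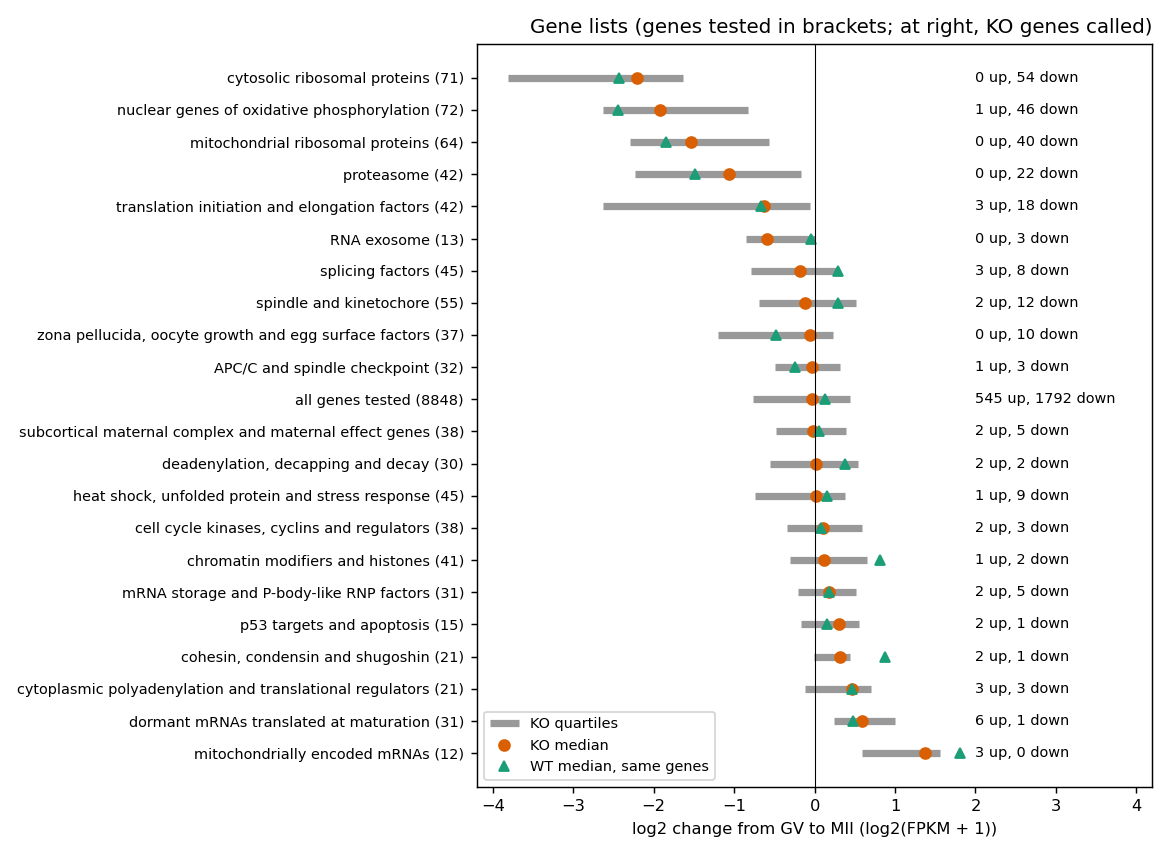
Median log2 change from GV to MII in KO (circles) of each gene list with 12 or more genes tested, with its KO quartiles (bars) and, for the same genes, in WT (triangles). Of the lists drawn, those of the ribosome, oxidative phosphorylation and proteasome lie lowest, and dormant and mitochondrially encoded mRNAs highest, in KO.

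Other large falls came from genes of varied function. Fam162a, which encodes a mitochondrial protein linked to hypoxia-induced cell death, showed the largest fall that the naming rule allowed, from 189, 352 and 152 FPKM to 3.37, 1.27 and 1.93 (-6.15, SE 0.39, adjusted p = 7e-05). Its exons overlap other genes over 19.8% of their bases, and without strand such reads may belong to either gene. Cpsf4l, a paralog of a subunit of the cleavage and polyadenylation factor, went from 113, 87.2 and 154 to 2.72, 2.28 and 1.72 FPKM (-5.17, adjusted p = 6.5e-05). Ckb, the brain-type creatine kinase, changed by -5.05, and Pfdn6, a prefoldin subunit, by -4.92. The splicing-linked gene Bud31 and Fcf1, a factor of ribosome biogenesis, changed by -4.82 and -4.76, and 15.2% of the exon bases of Bud31 overlap other genes. For all of these the call held without any 1 library.

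**Figure D4:**
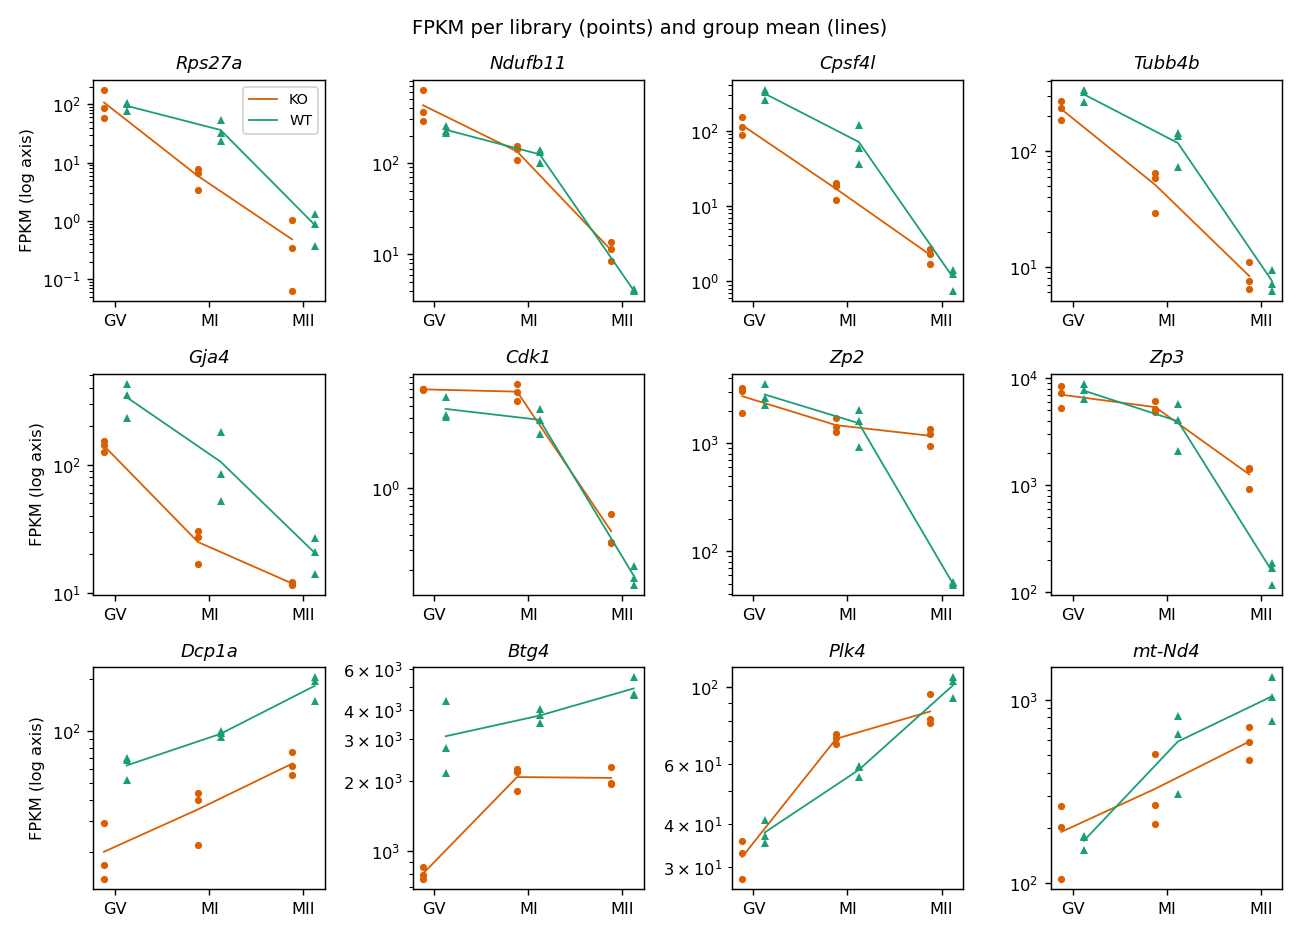
FPKM of 12 genes in each library (points, logarithmic vertical axes) and group means (lines) at GV, MI and MII in KO (orange) and WT (green). The upper rows show genes that fell in KO and the lowest row genes that rose. In KO at MII Zp2 stands at 1219, 1367 and 939.9 FPKM and Zp3 at 1434, 1438 and 917, against 51.6, 48.8 and 50.6 and 188, 117 and 169 in WT.

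MI levels lay between those of the other stages in several genes and not in others, as values side by side. Over the 71 cytosolic ribosomal protein genes the median level in the 3 KO MI libraries was 8.74, 9.05 and 13.3 FPKM. All 3 lay above the MII values given above, and the highest lay above the lowest GV value of 12.6 FPKM. Rps27a stood at 6.59, 3.36 and 7.77 FPKM at MI, and Cpsf4l at 20.5, 18.2 and 11.9. Cdk1, the kinase of maturation-promoting factor, had 7.1, 6.85 and 7.03 FPKM at GV, 6.62, 7.83 and 5.61 at MI and 0.607, 0.338 and 0.347 at MII (-2.49 from GV to MII, adjusted p = 0.000183). Its GV and MI values overlapped and lay far above all MII values.

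The gene lists that follow were closer to all genes, of which 6.16% were higher and 20.3% lower, and most of their counts lay near or below these shares. Among 31 factors of mRNA storage particles, 5 were lower and 2 higher, with a median of 0.18. Zar1l, a paralog of the maternal effect gene Zar1 that binds stored mRNA, fell from 154, 218 and 135 FPKM to 7.31, 2.21 and 5.74 (-4.88, SE 0.39, adjusted p = 0.000104). Patl2, an oocyte repressor of translation, went from 126, 66.1 and 144 to 40.2, 30.6 and 24.5 FPKM (-1.74, adjusted p = 0.0077), and Cirbp, a cold-inducible RNA-binding protein, changed by -1.76. Larp4, a poly(A)-associated protein, rose from 23.2, 19.6 and 16.7 to 47.2, 39.3 and 46.9 FPKM (1.13, adjusted p = 0.0132), a call lost without KO MII replicate 1 or 3. Lsm14a, the paralog of the deleted gene, was singled out after its values were seen. It stood at 24.4, 13.7 and 13.5 FPKM at GV and 40.6, 33.6 and 46.3 at MII (1.21, adjusted p = 0.0211), and the call held in 3 of 6 fits without 1 library.

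Of 30 factors of deadenylation, decapping and decay, 2 rose, 2 fell and the median was 0.02. Dcp1a, an activator of decapping, stood at 29.3, 16.9 and 14.0 FPKM at GV and 75.8, 62.6 and 55.4 at MII (1.69, SE 0.33, adjusted p = 0.0055). Btg4 went from 856, 761 and 787 to 1948, 2274 and 1936 FPKM (1.35, SE 0.27, adjusted p = 0.00628). Both calls held without any 1 library. In WT, Dcp1a stood at 69.5, 67.4 and 52.3 FPKM at GV and 193, 148 and 203 at MII, and Btg4 at 2743, 2150.2 and 4379 and 4638, 5512 and 4687, so that the KO levels lay below the WT levels at each of these stages. The differences between the KO and WT changes did not pass for Dcp1a (0.19, 95% interval -0.65 to 1.02) or Btg4 (0.62, -0.17 to 1.40). Cnot10, a subunit of the CCR4-NOT complex, fell from 6.55, 8.35 and 3.45 to 0.61, 0.476 and 0.868 FPKM (-2.05, adjusted p = 0.00171), and Lsm6, of the ring that binds deadenylated mRNA, changed by -1.35, a call that held in 2 of 6 such fits. Of 13 RNA exosome genes 3 were lower and 0 higher, with a median of -0.59. Exosc5 fell from 4.97, 10.5 and 4.09 to 0.117, 0.0691 and 0.215 FPKM (-2.64, adjusted p = 0.000543) and Exosc4 from 7.51, 14.2 and 4.42 to 0.88, 0.858 and 1.64 (-2.08), of whose exon bases 19.8% overlap other genes.

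In the list of cytoplasmic polyadenylation and translational regulators, 3 of 21 genes were higher and 3 lower, with a median of 0.47. Without KO GV replicate 3 the median was 0.13, and without KO MII replicate 1 or 2 none was higher. Cpeb1, which binds the element described above, fell from 234, 301 and 131 FPKM to 53.8, 52.0 and 64.1 (-1.87, SE 0.35, adjusted p = 0.00435), and Papolg, a nuclear poly(A) polymerase, changed by -1.58. Tent2, also known as GLD2, a cytoplasmic poly(A) polymerase, rose from 10.9, 6.52 and 10.8 to 27.7, 20.9 and 20.6 FPKM (1.23, adjusted p = 0.0164). The Tent2 call was lost without KO MII replicate 1 or 2 and the Papolg call without KO GV replicate 1 or KO MII replicate 2 or 3. Among 31 dormant mRNAs, known from earlier work to be translated during maturation, 6 were higher and 1 lower. Their median was 0.59. With 1 library left out it was 0.46 to 0.70, with 3 to 11 higher. Il7, an interleukin gene listed among them, rose from 6.42, 5.29 and 7.8 to 21.1, 17.6 and 15.9 FPKM (1.36, adjusted p = 0.00674). Fbxo43, the inhibitor of the anaphase-promoting complex that holds eggs at metaphase II, went from 19.6, 14.1 and 13.0 to 31.1, 31.8 and 27.6 FPKM (0.93, adjusted p = 0.0345), a call kept in 2 of 6 fits without 1 library. Tacc3, a spindle protein, was the member that fell, from 239.6, 106 and 377 to 72.5, 88.0 and 54.9 FPKM (-1.58), also kept in 2 of 6.

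In the list of cell cycle regulators 2 of 38 genes were higher and 3 lower, with a median of 0.10. Plk4 rose from 35.6, 27.7 and 33.0 FPKM to 95.5, 81.1 and 78.8 (1.38, SE 0.26, adjusted p = 0.00448). Wee1, an inhibitory kinase of CDK1, fell from 16.8, 10.4 and 8.51 to 3.83, 3.13 and 4.4 FPKM (-1.39), and Ccno, an atypical cyclin, from 191, 184 and 100.1 to 61.2, 64.4 and 56.8 (-1.31). Calls for Cdk1 and Plk4 held without any 1 library, those for Wee1 and Ccno in 3 and 2 of 6 such fits. Mos, the oocyte kinase upstream of MAPK, was 1 of 6 abundant genes named for a small change and a small SE, at 103, 94.3 and 115 FPKM at GV and 92.1, 95.5 and 110.3 at MII (-0.07, 95% interval -0.64 to 0.51). The others of these 6 were Fxr1, Abcf2, Cnpy4, Hspd1 and Kif2c, a microtubule depolymerase, with changes of -0.19 to 0.12. Their intervals reached at most 0.75 from 0 in either direction.

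Spindle and kinetochore genes included 12 that fell and 2 that rose of 55, and their median was -0.12 as deposited and 0.07 with quantile normalization. Tubb4b, a beta-tubulin, fell from 233, 184 and 272 FPKM to 10.95, 6.49 and 7.47 (-4.64, SE 0.30, adjusted p = 7e-05), and Tubb5 from 24.0, 25.3 and 18.3 to 6.97, 4.31 and 4.23 (-1.95). The centromere genes Cenpm and Cenpt changed by -3.44 and -2.05. Of 32 genes of the anaphase-promoting complex and checkpoint, 3 were lower and 1, Fbxo43, higher, with a median of -0.03. Anapc2 fell from 7.37, 12.4 and 2.49 to 0.746, 0.682 and 1.05 FPKM (-2.01), Anapc7 changed by -1.35 and Fzr1, the activator CDH1, by -1.64; none of these 3 calls held in more than 3 of the 6 fits without 1 library, and Anapc2 and Fzr1 were highest in KO GV replicate 2. Of 21 cohesin, condensin and shugoshin genes 2 were higher and 1 lower, with a median of 0.32. Without KO GV replicate 3 the median was 0.02, and over all fits without 1 library 0 to 2 were higher and 0 to 1 lower. Ncaph, a condensin subunit, went from 29.2, 22.0 and 26.9 to 52.5, 61.2 and 46.4 FPKM (1.01), Sgo1, the protector of centromeric cohesion, changed by 0.89 and Ncaph2, with 19.7% of its exon bases in other genes, by -1.06, and these calls held in 2, 1 and 2 of the 6 fits without 1 library.

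Oocyte growth and egg surface genes fell in 10 of 37 cases and rose in 0, with a median of -0.06 as deposited and up to 0.09 with other scalings. Zp3, a zona pellucida glycoprotein that sperm bind, stood at 8535, 5218 and 7317 FPKM at GV and 1434, 1438 and 917 at MII (-2.48, SE 0.34, adjusted p = 0.000959). Zp2 went from 3054, 1903 and 3246 to 1219, 1367 and 939.9 FPKM (-1.20, SE 0.33, adjusted p = 0.0279), a call kept in 2 of 6 fits without 1 library. Gja4, or connexin 37, which couples oocyte and cumulus cells, fell from 142, 154 and 126 to 11.9, 11.5 and 12.1 FPKM (-3.46, adjusted p = 7.89e-05). Fgf8, a signal to cumulus cells, changed by -3.14 and Izumo1r, or Juno, the egg receptor for sperm IZUMO1, by -1.99. Calls for Zp3, Gja4, Fgf8 and Izumo1r held without any 1 library.

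Of 38 maternal effect genes, the subcortical maternal complex included, 5 were lower and 2 higher, with a median of -0.03 as deposited and up to 0.19 with other scalings. Ooep, a core member of that complex, stood at 4974, 9043 and 3774 FPKM at GV and 1520.1, 1060.0 and 2059 at MII (-1.89, adjusted p = 0.0101), a call lost without KO MII replicate 2. Npm2, the oocyte histone chaperone, went from 4055, 5909.7 and 4088 to 1506, 1475 and 1595 FPKM (-1.60, adjusted p = 0.00459), and Dppa5a from 1395, 1645 and 961 to 318, 260.0 and 367 (-2.06). Tle6 changed by -1.40 and kept its call in 3 of 6 fits without 1 library.

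Further called members of these oocyte lists, named after their values were seen, held transcription factors of oocyte growth and other zona genes. Figla, which drives the zona genes, fell from 37.5, 73.4 and 22.4 FPKM to 11.6, 7.4 and 9.07 (-1.99, adjusted p = 0.0086), and Nobox, a homeobox factor of follicle growth, from 932, 1336 and 856 to 458, 300.4 and 289 (-1.58, adjusted p = 0.00687). Zp1, which links zona filaments, fell from 1131, 872 and 649 to 267, 339.8 and 195 FPKM (-1.72, adjusted p = 0.00556), and Oosp2, an oocyte-secreted protein, changed by -1.38. These 4 calls held without any 1 library. Dnmt1, the maintenance DNA methyltransferase, had 858, 1226 and 349.8 FPKM at GV and 206, 229 and 262 at MII (-1.63, adjusted p = 0.0268), and Uchl1, a deubiquitinase with 18.1% of its exon bases in other genes, changed by -1.66; the Dnmt1 call held in 2 and the Uchl1 call in 3 of 6 fits without 1 library. Zbed3, a member of the subcortical complex, rose from 7874, 4412 and 5577 to 13193, 14738 and 11829 FPKM (1.19, adjusted p = 0.0309), kept in 3 of 6 such fits.

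Among genes of stress responses, 9 of 45 were lower and 1 higher, with a median of 0.02. Ddit3, or CHOP, a transcription factor of the unfolded protein response, fell from 49.3, 132 and 43.6 FPKM to 3.53, 1.91 and 3.82 (-4.06, adjusted p = 0.000351). The antioxidant genes Prdx2 and Gpx4 changed by -2.30 and -3.26 and the co-chaperone gene Dnajb1 by -2.09. Of 15 p53 targets and apoptosis genes, 2 rose and 1 fell, with a median of 0.31. Btg2, an antiproliferative p53 target, rose from 3.74, 3.97 and 1.31 to 13.2, 9.49 and 11.6 FPKM (1.70, adjusted p = 0.00827). Trp53 itself went from 11.6, 8.6 and 8.51 to 22.0, 16.2 and 19.07 (0.93) and Bax from 4.78, 20.5 and 4.09 to 1.05, 0.706 and 3.1 (-1.82); these 2 calls held in 2 and 3 of 6 fits without 1 library, and Bax was highest in KO GV replicate 2.

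Of 41 chromatin genes 1 rose and 2 fell, with a median of 0.12, and of 45 splicing factors 3 rose and 8 fell, with a median of -0.18 as deposited and 0.10 with quantile normalization. Chaf1b, of the chromatin assembly factor, fell from 3.7, 4.02 and 4.24 FPKM to 0.611, 0.284 and 0.404 (-1.80), and Eed, of the Polycomb complex that methylates histone H3, rose from 22.8, 17.3 and 29.3 to 49.9, 41.4 and 39.3 (0.91, adjusted p = 0.0472), a call kept in 1 of 6 fits without 1 library. Kat8, a histone H4 acetyltransferase, fell from 28.4, 14.6 and 39.9 to 2.22, 1.18 and 1.33 FPKM (-3.39). The spliceosome genes Snrpd2 and Snrpb changed by -3.93 and -2.88, and the RNA helicase gene Ddx39b by -2.18. Of 7 tested genes known from zygotes and 2-cell embryos, 1 was higher and 4 lower. Klf17 rose from 177, 124 and 166 to 449.7, 397 and 342 FPKM (1.35, adjusted p = 0.00763), and Arg2, of whose exon bases 28.1% overlap other genes, changed by -4.26 and Tcstv3 and Sp110 by -1.23 and -0.97.

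Few somatic markers passed the filter. Of 5 in the wider list of cumulus and granulosa genes, Serpine2, a protease inhibitor, rose from 67.8, 59.8 and 79.7 FPKM to 149, 148 and 128 (1.03) and Fshr, the follicle-stimulating hormone receptor, fell from 1.18, 1.954 and 1.3 to 0.176, 0.149 and 0.0294 (-1.14). The 27 genes of that list found in the table summed to 83.8 to 100.3 FPKM at GV and 155 to 175 at MII, most of it Serpine2, with 9 to 16 genes at 0. None of 3 markers of theca, stroma and endothelium passed the test, and of 2 blood markers the complement gene C1qb fell from 24.3, 11.01 and 15.5 to 0.562, 0.511 and 1.97 FPKM (-3.16). These levels may not come from somatic cells, and their part in other results was not tested.

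Other large rises are given last. Zfp982, a zinc finger gene, showed the largest rise that the naming rule allowed, from 6.67, 2.55 and 6.75 FPKM to 32.5, 25.4 and 14.2 (2.00, SE 0.42, adjusted p = 0.00817). Itga9, an integrin subunit, went from 11.4, 10.2 and 11.2 to 45.8, 46.3 and 34.1 FPKM (1.84, SE 0.26, adjusted p = 0.00114), and Ccdc69 from 132, 101 and 185 to 469, 463 and 405 (1.71). Tmem117, Gpm6a and Prr32 rose by 1.89, 1.79 and 1.74. Calls for these 6 genes held without any 1 library. Crabp2, a carrier of retinoic acid, rose from 20.2, 50.1 and 13.5 to 70.0, 60.8 and 118 FPKM (1.69), Abcg1, a sterol transporter, from 3.87, 6.18 and 10.7 to 32.6, 17.0 and 19.6 (1.64), and Gata3, Yipf4, Mfsd14b and Tmem59 rose by 1.72, 1.71, 1.66 and 1.66. For these 6 the call held in only 2 to 4 of 6 fits without 1 library.

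The change in KO was then set against the change in WT, for which GV and MII libraries of WT entered 1 model with those of KO. The 2 changes rest on different libraries, and across the 8848 genes they correlated with Pearson r = 0.781, where genes are not independent replicates. The 1792 genes that fell in KO, chosen by that fall, had a median change of -1.71 in KO and of -1.70 in WT, and 1760 had a WT estimate below 0. The 545 that rose had medians of 1.10 and 0.87, and 501 had a WT estimate above 0. The difference between the changes passed an adjusted p of 0.05 in 428 genes (4.84%). In 339 (3.83%) the KO change lay above the WT change, with medians of -0.11 in KO and -2.11 in WT, and in 89 (1.01%) below it, with medians of -0.93 and 0.53. Of the 339, 236 were not called in KO, 77 were lower and 26 higher, and 335 had a WT estimate below 0. These sets were chosen by the difference, and their medians are a description.

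**Figure D5:**
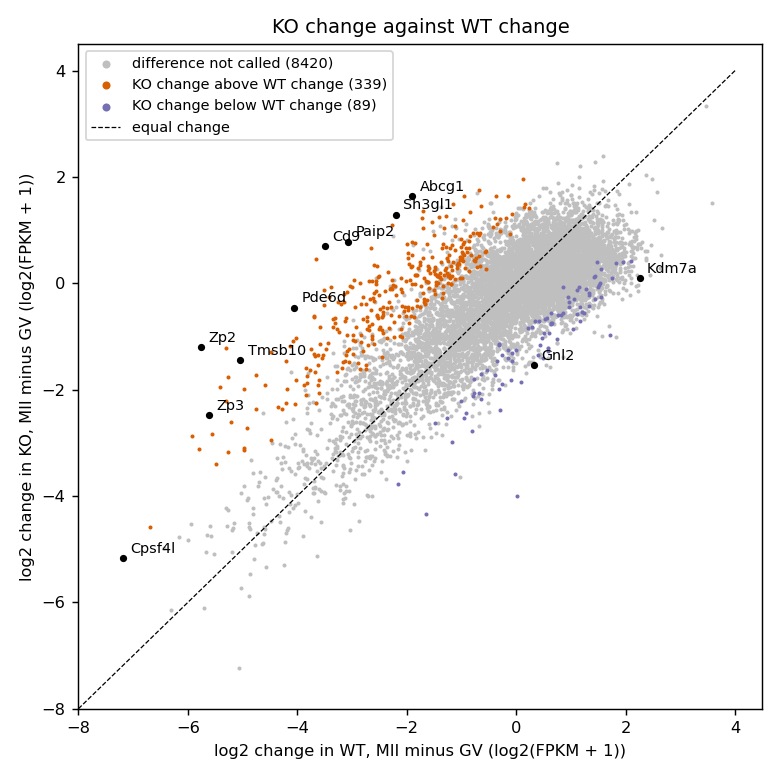
Log2 change from GV to MII in KO (vertical) against that in WT (horizontal) for 8848 genes, with genes whose difference passed an adjusted p of 0.05 in colour the line of equal change dashed and some named genes in black. The 339 orange genes lie above the line, mostly where WT fell, and the 89 purple genes below it.

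Zp2 showed the largest difference that the naming rule allowed. WT libraries held 2655, 3576 and 2271 FPKM at GV and 51.6, 48.8 and 50.6 at MII, and the KO change of -1.20 lay 4.57 above the WT change of -5.76 (SE 0.37, adjusted p = 9.86e-05). Cd9, an egg surface protein needed for fusion with sperm, went from 171, 138 and 130.3 to 17.9, 11.5 and 8.39 FPKM in WT and from 208, 94.4 and 164 to 246, 223 and 251 in KO (difference 4.18, SE 0.44, adjusted p = 0.000374). Its KO change of 0.69 did not pass the test (adjusted p = 0.161). Paip2, which binds and inhibits poly(A)-binding protein, had 219.7, 109 and 307 and 363, 327 and 316 FPKM in KO and 251, 184 and 367 and 29.2, 28.4 and 31.8 in WT (difference 3.85).

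Abcg1 and Sh3gl1, or endophilin A2, rose in KO (1.64 and 1.29) and had WT estimates of -1.90 and -2.19, with differences of 3.54 and 3.49 (adjusted p = 0.00187 and 0.000575). Tmsb10, an actin-binding thymosin, and Pde6d, a carrier of prenylated proteins, differed by 3.60 and 3.59. These 7 differences held without any 1 of the 12 libraries. Over all genes tested, the KO change was called above the WT change in 3.83% and below it in 1.01%. A count of 0 below is near that share in lists of 37 to 72 genes. Of 42 proteasome genes, 5 lay above and 1 below. In the list of zona, oocyte growth and egg surface genes 8 of 37 changes lay above those in WT and 0 below, Zp3 among them (3.13, adjusted p = 0.0012). In the maternal effect list the counts were 8 of 38 and 0, Tle6 among them (2.16, adjusted p = 0.0178). Like the other lists given here, both were drawn up with earlier results of these samples known. No list count here is independent evidence of a difference. Nuclear genes of oxidative phosphorylation had 8 of 72 above and mitochondrial ribosomal proteins 7 of 64, with 0 below in each, although the medians of both lists fell in KO as given above. Members of these lists that were named after their values were seen include Ube2a, a ubiquitin-conjugating enzyme, with 57.5, 35.7 and 65.5 and 55.4, 47.7 and 44.1 FPKM in KO and a KO change of -0.07 (difference from WT 2.93, adjusted p = 0.00133). Zfp57, a guardian of imprints, had 1070.1, 1091 and 1105 FPKM at KO GV and 1536, 1801 and 1260.1 at KO MII (0.48 against -1.71 in WT, difference 2.19, adjusted p = 0.00175). Dnmt3l, the cofactor of de novo DNA methylation, differed by 1.99 and Zp1 by 3.03, and these 4 differences held without any 1 library. Padi6 and Nlrp5 of the subcortical complex differed by 3.06 and 1.89, calls that held in 6 of 12 fits without 1 library. Their KO levels overlapped between the stages, from 4716, 1632 and 3679 to 2181, 3204 and 1078 FPKM for Padi6.

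Members of other lists showed the same kind of difference, again named after their values were seen. Mapk3, or ERK1, the kinase downstream of Mos, had 250.2, 340.0 and 140.3 FPKM at KO GV and 249.9, 215 and 283 at KO MII (0.12), against -2.52 in WT (difference 2.64, adjusted p = 0.0102). Tubb2a, a beta-tubulin, changed by -0.29 in KO and -2.67 in WT (difference 2.38, adjusted p = 0.00175), whereas Tubb4b fell in both with no difference that passed (0.54, adjusted p = 0.325). Kif5b, a kinesin heavy chain, lay on the other side, with -0.30 in KO and 1.45 in WT (difference -1.75, adjusted p = 0.0157). Calls for Mapk3, Tubb2a and Kif5b held without any 1 of the 12 libraries. Cpsf4l fell in both genotypes, by less in KO (difference 2.01, adjusted p = 0.00796).

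Changes below those in WT were smaller. Kdm7a, a histone demethylase, stood at 1.43, 1.24 and 0.565 FPKM at KO GV and 1.57, 0.676 and 1.42 at KO MII, whereas WT libraries held 6.52, 5.76 and 5.76 and 37.2, 33.6 and 27.4 (difference -2.16, SE 0.35, adjusted p = 0.00388). Gnl2, a nucleolar GTPase, fell from 13.9, 22.3 and 13.7 to 5.53, 4.11 and 5.28 FPKM in KO and had 29.7, 29.2 and 19.4 and 36.01, 28.3 and 33.0 in WT (difference -1.86, adjusted p = 0.0114). Both differences held without any 1 library. Ddx24, Itpr2, Nop14, Luzp1, Cnot3 and Rrp1 differed by -1.89 to -1.80, and these 6 calls held in 2 to 4 of 12 fits without 1 library, each being lost without WT GV replicate 2 or 3, any WT MII library, or KO MII replicate 1 or 2. Nop14 and Rrp1 act, like Gnl2, in ribosome biogenesis, and Itpr2 is a receptor for inositol trisphosphate that releases calcium. The number of differences moved with the library left out, whichever group it came from. It moved most without KO GV replicate 3, where 806 lay above and 1810 below. Without KO GV replicate 1 the counts were 213 and 43. Over the other fits without 1 library, 132 to 474 lay above and 11 to 108 below.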

How the data were processed

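RNA was measured in 18 libraries of 15 oocytes each, made with Smart-seq2 from oligo(dT)-primed cDNA, per the labels. The authors deposited 1 FPKM value per gene and library for 27874 genes. The submitters' processing notes list mm10 and DESeq2 1.38.3, with no step attached, and neither aligner, counter nor use of strand is given in the sources used here. Depth was recovered from the steps of the deposited FPKM values, of which 92.8% to 93.3% were whole reads within 0.05 reads. Molecules carry no identifiers, so depth speaks for counting error only.

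The change was fitted with limma 3.58.1 (R 4.3.3, trend) to log2(FPKM + 1), a scale that understates changes of low genes, in the 6 KO libraries, with Benjamini-Hochberg adjustment over all genes tested at 0.05. These libraries were fitted alone because KO GV replicates vary more. The difference from WT is the interaction term over 12 libraries.

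Genes named are Lsm14b, the 15 largest rises and falls among called genes with a mean of 5 FPKM or more and no overlap, up to 4 members of each list by smallest p, the 8 largest differences from WT each way where the KO or the WT stages did not overlap, and 6 steady genes; no predicted gene, clone or pseudogene was eligible, and some genes were omitted for length; 1 gene with a difference from WT is not reported here. Members and the 25 lists (994 of 1044 symbols found) were chosen with earlier results of these data known. Symbols matched for 27829 genes. The 3′ UTR features come from GENCODE vM21 on GRCm38, and the hexamer orders, the bins by GC and length and the printed stretches were chosen after values were seen. Alternatives changed pseudocount, filter, scaling, libraries fitted, library weights and replicate block, and left out each library.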

Additional observations from a re-analysis of the deposited data

Results flagged for a closer look

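The change from GV to MII differed between KO and WT in 428 genes by the interaction term of the limma fit, and the largest named differences drew attention for that reason. Above the WT change stood Zp2 (4.57 on the log2 scale), Cd9 (4.18), Paip2 (3.85), Tmsb10 (3.60), Pde6d (3.59), Abcg1 (3.54) and Sh3gl1 (3.49). Below it stood Kdm7a (-2.16), Ddx24 (-1.89), Itpr2 (-1.87), Gnl2 (-1.86), Nop14 (-1.85), Luzp1 (-1.81), Cnot3 (-1.81) and Rrp1 (-1.80). Of these 15, 9 passed without any 1 of the 12 libraries, Kdm7a and Gnl2 being those among the negative ones.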

How the results depend on the processing

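None of the 103 called changes named by the rule reversed in any setting run. The 2337 calls became 1442 with a filter at 5 FPKM and 997 of these were lower, 4133 with weights estimated gene by gene (1513 higher) and 1322 to 2925 without 1 library (78 to 744 higher, 1192 to 2181 lower). The 545 rises became 200 without a filter, 842 with median-of-ratios scaling, 1782 with quantile normalization, 1224 with all 18 libraries and 351 at 2-fold or more. A voom fit to the recovered reads called 520 higher and 1757 lower. With the replicate number as a block 1308 genes were called, 76 of them higher, and the difference from WT gave 274, 37 of them below. Same-numbered KO libraries had deviations that correlated with r = 0.20, -0.46 and -0.55, and not every library correlated best with its own number. Deviations from a mean of 3 libraries cancel out within the group and so constrain these correlations. They therefore cannot decide whether equal numbers pair the libraries.

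The 428 differences from WT became 190 without a filter (151 above, 39 below), 896 with median-of-ratios scaling (644 and 252), 4711 with library weights (1942 and 2769), 3602 with weights gene by gene (1519 and 2083) and 143 to 2616 without 1 library (132 to 806 and 11 to 1810). Those below were 184 with quantile normalization and 185 with 18 libraries. The estimation of library weights by restricted maximum likelihood stopped before convergence, and the gene-by-gene weights were added after its counts had been seen. The cause of these shifts was not tested.

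Shares of higher and lower genes with TTTTAT or TTTTAAT were 32.2% and 8.64% in the last 100 bases and 53% and 17.1% in the last 300 bases. For ATTTA they were 29.5% and 14.8%, and 54.4% and 28.3%. In the last 300 bases they were 10.7% and 5.99% for TGTANATA and 80.1% and 59.5% for AATAAA. Of the named genes 69 of 103 calls held in every setting, and 8 uncalled genes passed in some setting. With 3 libraries a group, the smallest called fall had a size of 0.575 and the smallest called rise of 0.606 on the log2 scale.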
